A study of Oryza sativa Indica Group with 45 samples.

Results

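Auxin response genes were followed through leaves and roots of 3 indica rice genotypes, the hybrid MRP5401 and the lines it was bred from, PMS80 as female parent (B line, here the B parent) and PR319 as male parent (R line, here the R parent). The members were the genes whose RefSeq symbol or synonym is IAA, ARF or SAUR with a number, or GH3 with a point or hyphen and a number. That rule found 61 genes, of which 53 had a probe set of their own on the Affymetrix Rice Genome Array, among 17905 genes with one. The 53 were 26 of 28 Aux/IAA genes, 17 of 23 ARF genes, 9 of 9 GH3 genes and 1 SAUR gene, SAUR39. The 8 genes without a probe set paired to them were IAA11, IAA29, ARF5, ARF6, ARF8, ARF19, ARF21 and ARF25. Each member was read from 1 probe set, the one with the highest mean over all arrays where there were several. Some members carry a further number as a synonym, which can repeat another gene's name: the gene called IAA4 here is also listed as IAA20, and the gene called IAA20 here is a different one.

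The study put 45 arrays on 15 groups, each of 3 arrays that the labels call biological replicates. In each of the 3 genotypes it sampled young leaf and young root of 14-day-old seedlings, mature leaf and mature root of plants of 40 to 60 days, and flag leaf of 90-day-old plants. Seed of all lines was grown hydroponically in a culture room, and the labels name no treatment or transgene for any group. With 3 arrays a group, precision is set by the number of arrays.

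Auxin enters the cell's transcription through a short chain. Aux/IAA proteins are repressors that sit on ARF transcription factors, which bind auxin response elements in promoters. Auxin joins an Aux/IAA protein to its F-box receptor, and the repressor is then degraded. Many Aux/IAA, GH3 and SAUR genes are themselves induced by auxin within minutes. Most GH3 enzymes join amino acids to auxin or to jasmonate, and in roots this pathway is known for its part in lateral and crown root formation, elongation and gravity responses.

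Levels below are log2 intensities, as single arrays or as the mean ± SD of 3 arrays, and differences are log2 differences ± the SE of the limma fit. A gene is called, or said to rise, fall or change, where its p adjusted over 24130 tested probe sets was under 0.05. Probe sets were tested where at least 1 group mean reached 5. A mean under 5 was taken as close to background, so 2 such means have no order, and a difference with 1 such mean on its low side is a lower bound with that mean set to 5. By this filter 45 of the 53 members were tested: 22 Aux/IAA, 16 ARF and 6 GH3 genes and SAUR39. IAA4, IAA14, IAA16, IAA26, ARF13, GH3.1, GH3.9 and GH3.11 stayed under 5 in every group, and they are in no count below. RNA came from whole organs, in which fewer cells of a type and less RNA per cell cannot be told apart.

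Several properties of the arrays moved with the groups, and their part in the results was not tested except where a value is given. The hybridization spike-ins averaged 10.31 for the hybrid, 11.24 for the B parent and 12.47 for the R parent in young leaf, and the R parent's young leaf arrays took the lowest range of array weights, 0.23 to 0.49. The 3′ index, the excess of 3′ over 5′ signal in 4 control genes, was 1.59 in mature root of the R parent against 3.63 in the hybrid and 3.71 for the B parent. Leaf markers, a list of 9 photosynthetic genes with a probe set, averaged 13.56 to 14.54 in leaves. In mature roots all 9 were under 5. In young roots they averaged 11.30 ± 0.38 in the hybrid, 9.51 ± 0.77 for the B parent and 9.26 ± 0.48 for the R parent, with 1 or 2 of the 9 under 5. The 11 root markers averaged 7.73 to 9.06 in young roots, 6.19 to 7.03 in mature roots and 4.83 to 5.77 in leaves, with 2 to 5 of the 11 under 5 in root groups. Not all of them followed the roots: NAAT1 averaged 14.41 to 14.62 in mature leaf and 3.44 to 4.23 in mature root, and IRO2 was highest in flag leaf, at 8.28 to 10.09. The clock gene CCA1 averaged 9.38, 11.97 and 7.46 in young leaf of the hybrid, B parent and R parent. Its fellow clock gene PCL1 averaged 11.17, 6.18 and 14.41 there, and the time of day of harvest is not given in the sources used here.

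Roots held more of the Aux/IAA and GH3 genes above background than leaves did. ARF genes reached 5 in similar numbers, 14 to 16 in root groups and 13 to 15 in leaf groups. Of the 53 members, 39 to 44 reached 5 in a root group and 27 to 32 in a leaf group, and 23 reached it in all 15 groups. Reaching 5 in roots only was seen for 10 of the 45 tested members (22.2%, against 16.9% of all probe sets tested), and reaching it in leaves only for 0 (8.39% of all). The 10 were IAA7, IAA8, IAA9, IAA12, IAA18, IAA20, ARF10, GH3.4, GH3.6 and GH3.8. These genes passed the filter only through the roots and had to differ, so the leaf and root counts describe the members and support nothing.

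**Figure D1:**
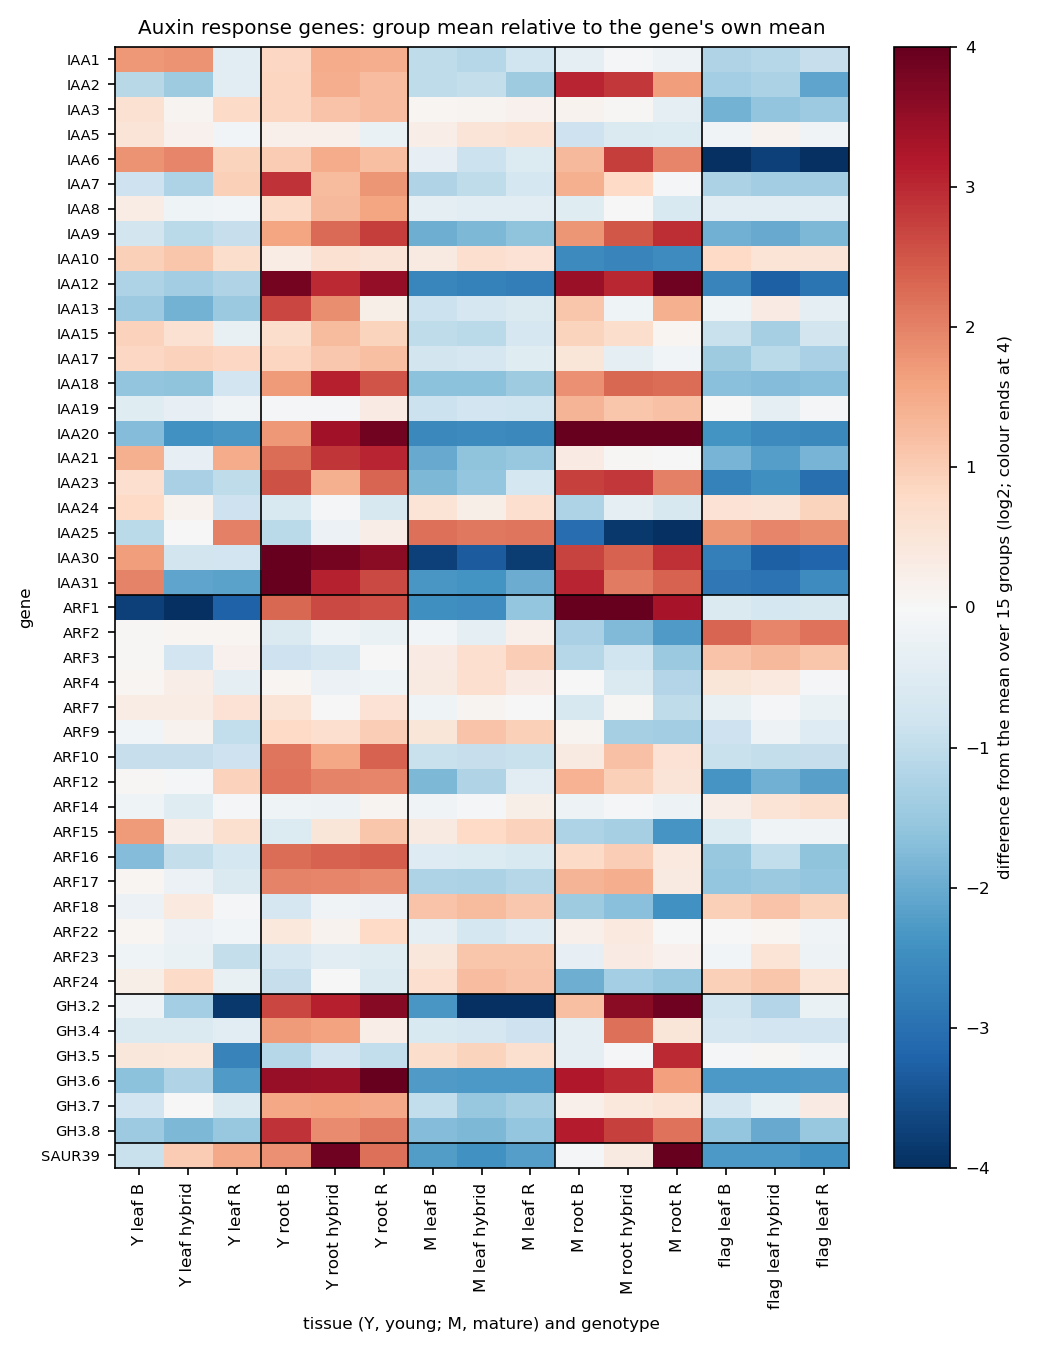
Group means of the 45 tested genes, each as the difference from the gene's own mean over the 15 groups (log2, blue lower, red higher, colours end at 4). Rows are genes grouped by family and columns are tissues with the B parent, hybrid and R parent in each. Most Aux/IAA and GH3 rows are red in the root columns, while the rows of ARF18, ARF24 and IAA25 are blue in mature root.

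Between leaf and root of seedlings 29 members were lower in leaf and 9 higher, where 81.3% of all probe sets were called, 53.2% lower and 28.1% higher. Between mature leaf and mature root 28 were lower and 14 higher, where 86.4% of all were called, 51.3% lower and 35.2% higher. The median member was lower in leaf by -1.21 in seedlings and -1.49 in mature plants, beside -0.41 and -0.35 over all probe sets tested. After quantile normalization the seedling split was 28 lower and 16 higher, and the median of all probe sets was -0.10 in seedlings and -0.18 in mature plants.

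Among the Aux/IAA repressors, 16 of 22 were lower in leaf and 5 higher at each age. IAA20 had a lowest, median and highest array of 6.63, 8.62 and 9.86 in young root and of 9.05, 9.61 and 9.97 in mature root. All its leaf arrays lay under 5, between 2.64 and 4.47. Its mature root level was thus at least 22.9-fold that of mature leaf. IAA12 behaved alike, with 8.47, 9.09 and 9.72 in young root, 8.25, 9.02 and 10.08 in mature root, and leaf means all under 5. IAA30, which lies next to IAA31 on chromosome 12, had arrays of 9.65, 10.12 and 10.85 in young root and of 7.69, 9.01 and 9.51 in mature root. In mature leaf its median array was 2.72 and every array was under 5. IAA13, in which a stabilizing mutation of rice blocks lateral root formation, differed by -3.20 ± 0.16 between young leaf and young root and by -1.49 ± 0.16 between mature leaf and mature root.

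IAA25 and IAA10 went the other way. IAA25 had a lowest, median and highest array of 9.87, 10.31 and 10.58 in mature leaf and of 2.88, 3.85 and 5.43 in mature root, so that no array of the groups overlapped. Its mature leaf level was at least 38.3-fold that of mature root, while in seedlings the difference was 0.68 ± 0.16 and was not called with the spike-ins as a covariate (0.31, adjusted p = 0.367). IAA10 ranged from 9.12 to 9.86 in mature leaf and from 5.09 to 7.32 in mature root, an 8.60-fold difference. IAA24 was also higher in leaf at both ages, by 0.47 in seedlings and 1.24 in mature plants. The seedling call of IAA24 was lost without R parent young leaf replicate 3 (0.34, adjusted p = 0.0834) and with the spike-ins as a covariate (0.74, adjusted p = 0.0708). IAA6 was higher in leaf in seedlings by 0.32 ± 0.12 and lower in mature leaf than in mature root by 6.01-fold, and the change of direction itself was not tested. IAA3 gave 0.17 in mature leaf minus mature root with its chosen probe set, -0.31 with its other one, and -0.06 after quantile normalization. IAA19 was lower in young leaf than in young root (-0.38), but higher after quantile normalization (0.28, called).

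The ARF transcription factors split more evenly. In seedlings 7 of 16 were lower in leaf and 4 higher, and in mature plants 6 were lower and 9 higher. ARF1 had the largest leaf deficit of the family: its young leaf arrays ran from 3.48 over a median of 3.78 to 4.91, and its young root arrays from 9.91 over 10.14 to 10.52. That is at least 35.7-fold. In mature plants ARF1 was 68.8-fold lower in leaf (-6.10 ± 0.17), with 4.71, 5.54 and 6.78 in leaf against 10.90, 11.68 and 12.42 in root. ARF10, ARF12, ARF16, ARF17 and ARF22 were also called lower in leaf at both ages, although ARF10 was under 5 in all leaf and mature root groups and so has no order in mature plants. ARF18 led the opposite group, with 9.57, 9.76 and 9.91 in mature leaf and 6.07, 6.88 and 7.34 in mature root, an 8.07-fold difference. ARF24, which together with ARF23 controls the formin RMD in rice, had 9.05, 9.67 and 10.00 in mature leaf and 6.14, 7.10 and 7.61 in mature root (6.16-fold). ARF15, listed as ETTIN1, was higher in leaf by 0.53 in seedlings and 2.33 in mature plants. The seedling call of ARF15 was lost with the spike-ins as a covariate (0.63, adjusted p = 0.0624). ARF9 was lower in young leaf than in young root (-1.13 ± 0.15) and higher in mature leaf than in mature root (1.74 ± 0.15), a reversal that was not tested as such.

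Of the 6 tested GH3 genes, 5 were lower in leaf at both ages. GH3.2 and GH3.8 encode enzymes that conjugate auxin with amino acids. GH3.2 had a lowest, median and highest array of 3.08, 3.40 and 5.22 in mature leaf and of 8.35, 10.97 and 11.56 in mature root, at least a 38.4-fold difference. GH3.8 was at least 14.9-fold lower in mature leaf. GH3.6 reached 5 only in roots, with 8.01, 8.37 and 9.03 in young root and 6.34, 7.62 and 8.31 in mature root. The exception was GH3.5 (JAR1), whose enzyme makes the active conjugate of jasmonate with isoleucine. Averaged over the genotypes, it differed by 0.36 ± 0.26 in seedlings and -0.11 ± 0.26 in mature plants, and neither difference was called. The genotypes went opposite ways. In the B parent the leaf mean was higher, at 8.57 against 6.97 in seedlings and 8.80 against 7.76 in mature plants. The hybrid's leaf mean was also higher than its root mean at both ages. The R parent's leaf mean was lower, at 5.42 against 7.13 in seedlings and 8.75 against 11.10 in mature plants. SAUR39, in rice a negative regulator of auxin synthesis and transport, was lower in leaf at both ages, by at least 3.60-fold in seedlings.

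**Figure D2:**
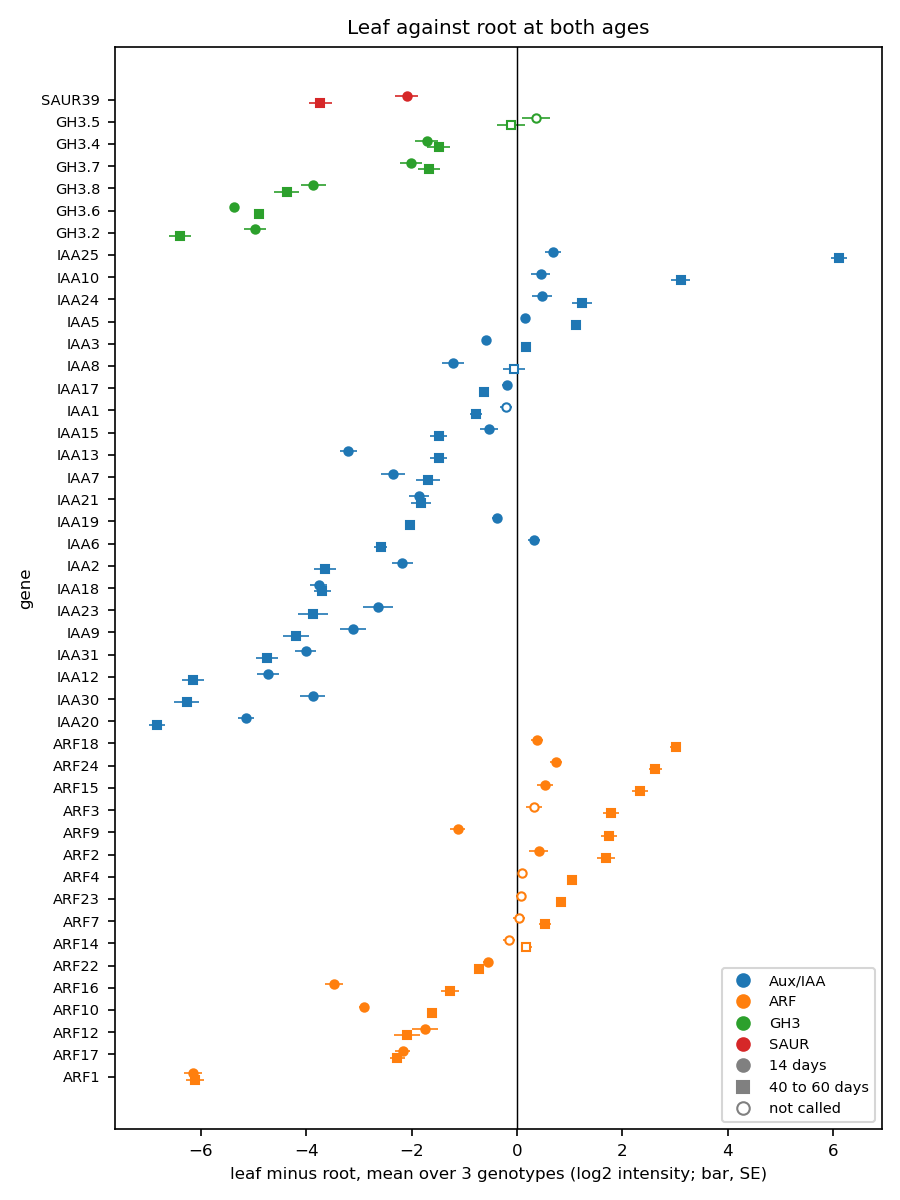
Leaf minus root for each tested gene (log2, mean over 3 genotypes, bars SE) in seedlings of 14 days (circles) and plants of 40 to 60 days (squares), coloured by family, with open symbols for genes not called. Points use the fitted means, also where these are under 5. Most Aux/IAA and GH3 genes lie left of 0 at both ages, and 9 called ARF genes lie right of 0 in mature plants.

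Age was compared next, within roots and within leaves. Between mature and young root 29 members were lower and 7 higher, where 77.1% of all probe sets were called, 45.9% lower and 31.2% higher. The median was -0.81, beside -0.20 over all probe sets, which moved to -0.08 under quantile normalization. By family, 13 of 22 Aux/IAA and 13 of 16 ARF genes fell. IAA25 fell at least 6.71-fold, from 6.81, 7.90 and 8.40 (lowest, median and highest) in young root to 2.88, 3.85 and 5.43 in mature root. IAA10 fell 8.26-fold and IAA21 6.09-fold. IAA21 stood at 12.11 to 13.23 in young root and 9.49 to 10.84 in mature root, with no overlap. ARF15 fell 3.98-fold. The 7 that rose were IAA2, IAA6, IAA19, IAA20, ARF1, ARF23 and GH3.5. GH3.5 rose 3.52-fold on average, from means of 6.97 to 7.35 to means of 11.10 (R parent), 8.04 (hybrid) and 7.76 (B parent), and ARF1 rose 2.71-fold.

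In leaves 22 members were lower and 14 higher at 40 to 60 days than at 14 days, where 65.7% of all probe sets were called, 32.3% lower and 33.4% higher. Their median was -0.39, beside -0.02 over all. Of the 36 calls 5 have no order, 4 of Aux/IAA genes and 1 of a GH3 gene. The 3′ index was 2.21 to 2.59 in mature leaf groups and 3.70 to 4.34 in young leaf groups, and with it as a covariate 14 members were lower and 8 higher. IAA21 fell 5.95-fold, from 9.42, 11.36 and 12.00 to 7.73, 8.35 and 9.19, and IAA6 4.36-fold, from 9.72, 10.74 and 11.00 to 7.96, 8.35 and 8.77. Neither gene's groups overlapped. IAA30 fell at least 2.44-fold. SAUR39 ended under 5 in mature leaf, between 2.71 and 3.32, from 3.97 to 7.18 in young leaf. Of the ARF genes 9 rose and 4 fell, the largest measured rise being that of ARF23, 2.57-fold from 10.95 to 12.30 in the median array. IAA25 rose 3.56-fold on average. Its means went from 7.06 to 10.34 in the B parent, 8.15 to 10.24 in the hybrid and 10.15 to 10.27 in the R parent. GH3.5 rose 2.53-fold on average, a rise that was not called with the 3′ index as a covariate (0.45, adjusted p = 0.501). The mean of GH3.5 went from 5.42 to 8.75 in the R parent and from 8.57 to 8.80 in the B parent. In the hybrid its young leaf mean was 8.55, and its mature leaf mean was 0.20 above the B parent's.

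Between flag leaf and mature leaf 24 members (53.3%) were called, 10 higher and 14 lower in flag leaf. Of all probe sets 64.2% were called, 33.2% higher and 31% lower. The calls of 2 Aux/IAA genes among the 24 have no order. The median was -0.12 beside 0.00 over all. The 3′ index was 2.21 to 2.59 in mature leaf groups and 3.47 to 4.13 in flag leaf groups. With it as a covariate the fall of GH3.5 (-0.79) was not called (0.02, adjusted p = 0.981). IAA6 fell at least 9.83-fold, from 7.96, 8.35 and 8.77 to 3.86, 4.77 and 5.94. IAA3 fell 3.38-fold with its chosen probe set and by only -0.07 with its other one (adjusted p = 0.687). ARF9 fell 2.60-fold. ARF2, listed as ETTIN2, rose 4.73-fold, from 6.16, 6.98 and 7.30 to 8.77, 9.13 and 9.54, and ARF1 rose 2.87-fold. GH3.2 rose at least 3.07-fold, and its flag leaf arrays spread from 5.01 to 7.85.

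The parents were called apart most often in young leaf and mature root, in 48.9% of members each, near or under the share of all probe sets. In young leaf the R parent was higher than the B parent in 5 members and lower in 17, where 46.3% of all probe sets were called, 17.3% higher and 29% lower. Of these calls 3 have no order, those of IAA7 and IAA18 (higher) and GH3.6 (lower). The bound for ARF16 (higher) was only 0.04. In young root the R parent was higher in 10 and lower in 5, where 28.6% of all were called, 16.8% higher and 11.7% lower. In mature leaf it was higher in 4 and lower in 1, where 15.2% were called (9.43% higher, 5.74% lower). In mature root it was higher in 7 and lower in 15, where 58.9% were called (27.7% higher, 31.3% lower). In flag leaf it was higher in 1 and lower in 2, where 12.7% were called (6.54% higher, 6.16% lower). Over the 5 tissues 10 of the 45 members were called nowhere, beside 12.6% of all probe sets. Calls in both directions were made for 12, beside 25.5% of all, and calls the same way in all 5 tissues for 0, beside 1.83%. After quantile normalization 9 were higher and 15 lower in young leaf, and 2 higher and 1 lower in mature leaf.

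**Figure D3:**
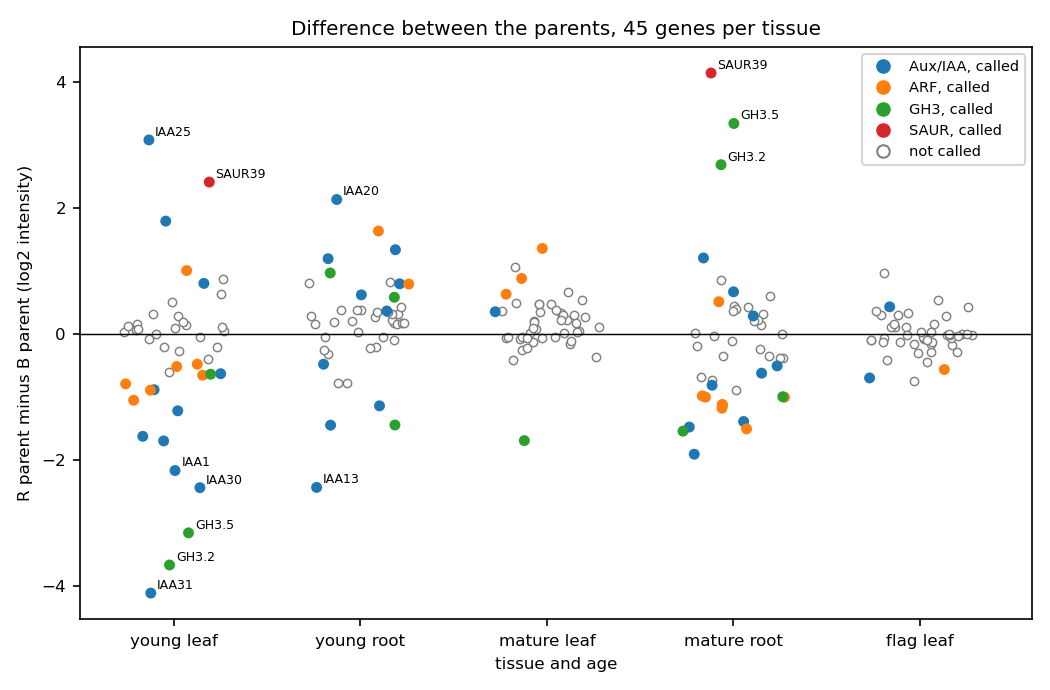
R parent minus B parent (log2) for the 45 tested genes in each tissue, filled and coloured by family where called, open where not, with names for called genes beyond 2 in size. Points use fitted means, also where these are under 5, and their horizontal place within a tissue carries no value. SAUR39, GH3.5 and GH3.2 stand highest in mature root, and GH3.5 and GH3.2 are among the lowest in young leaf.

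SAUR39 showed the largest parental difference in mature root. The R parent's arrays read 9.41, 9.56 and 8.72, the B parent's 3.72, 5.85 and 5.69, and the hybrid's 5.29, 5.16 and 6.06. The R parent stood clear of both others, 17.7-fold above the B parent (4.15 ± 0.38, adjusted p = 2.6e-11) and 13.2-fold above the hybrid. In young leaf it was again higher in the R parent, by at least 3.19-fold, with 7.18, 6.47 and 6.37 against 3.97, 4.34 and 4.46 in the B parent. There the hybrid, at 6.50, 5.83 and 6.16, overlapped the R parent.

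GH3.2, GH3.5 and GH3.6 were called in both directions between the parents over the tissues, while GH3.4, GH3.7 and GH3.8 were not. In mature root GH3.5 read 10.92, 10.96 and 11.42 in the R parent, 7.88, 7.72 and 7.66 in the B parent and 8.43, 8.12 and 7.57 in the hybrid. The R parent was 10.2-fold above the B parent (3.34 ± 0.46, adjusted p = 1.3e-07) and the hybrid stayed near the B parent. In young leaf GH3.5 read 5.94, 3.28 and 7.05 in the R parent, 7.99, 8.54 and 9.19 in the B parent and 8.73, 8.60 and 8.30 in the hybrid. Here the R parent was 8.88-fold lower, on arrays that spread widely. In young root, mature leaf and flag leaf the arrays of its genotypes overlapped and no pair was called apart. The leaf and root differences of GH3.5 were themselves apart, by -3.31 ± 0.64 in seedlings and -3.40 ± 0.64 in mature plants.

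GH3.2 was likewise higher in the R parent's mature root and lower in its young leaf. Unlike GH3.5, it was also called higher in the R parent's young root (0.97). Its mature root arrays read 10.97, 11.56 and 11.33 in the R parent and 8.66, 8.35 and 8.78 in the B parent, a 6.46-fold difference, and the hybrid's 11.12, 11.02 and 10.82 lay with the R parent. In young leaf the R parent's 3.82, 3.37 and 3.35 were all under 5 and the B parent's were 7.30, 6.60 and 7.63, so the R parent was at least 4.52-fold lower. The hybrid, at 6.06, 5.72 and 6.26, lay between them. In mature leaf the B parent's mean of 5.07 only just reached 5, the others' did not, and the bound on the difference was -0.07. In mature root the R parent also had less GH3.6 (2.90-fold) and less GH3.8 (1.99-fold), so that of 6 GH3 genes 2 were higher there and 2 lower. The R parent's low 3′ index coincides with these calls: with it as a covariate 10 members, not 22, were called in mature root, while the calls named here for SAUR39, GH3.5, GH3.2 and IAA25 held.

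Among the repressors, IAA25 followed the parents in seedlings. In young leaf it read 7.07, 7.17 and 6.94 in the B parent, 7.94, 8.07 and 8.44 in the hybrid and 10.05, 10.12 and 10.27 in the R parent, with no overlap between any of the groups. The R parent exceeded the B parent 8.48-fold (3.08 ± 0.27, adjusted p = 1.2e-11). The order of the means was the same in young root, at 7.04, 7.89 and 8.39, and the R parent was 2.53-fold above the B parent. The hybrid and the R parent were not called apart there. In mature leaf the means were 10.34, 10.24 and 10.27 and not called apart. In mature root the B parent read 5.00, 4.99 and 5.25, the hybrid 5.43, 3.85 and 3.51 and the R parent 3.43, 3.22 and 2.88, so that the B parent's mean of 5.08 only just reached 5 and the bound on the difference was -0.08 (R parent minus B parent).

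IAA30 and IAA31, the neighbours on chromosome 12, marked the B parent's young leaf. IAA31 read 8.17, 8.27 and 8.13 there, 4.41, 4.36 and 3.59 in the hybrid and 3.94, 3.88 and 4.43 in the R parent. Both other genotypes were thus under 5, at least 9.11-fold below the B parent. IAA30 read 7.86, 8.37 and 7.50 in the B parent, 5.39, 5.10 and 5.97 in the hybrid and 5.44, 4.46 and 6.52 in the R parent, 5.40-fold lower in the R parent. In young root IAA31 was again highest in the B parent, at 10.34, 10.17 and 10.38 against 9.11, 8.84 and 8.62 in the R parent, a 2.72-fold difference.

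IAA13 and IAA20 separated the parents in young root. IAA13 read 13.47, 13.09 and 12.97 in the B parent, 12.60, 12.35 and 12.12 in the hybrid and 10.51, 10.89 and 10.84 in the R parent, where it was 5.38-fold below the B parent (-2.43 ± 0.27, adjusted p = 8.1e-09). IAA20 ran the other way, with 6.63, 7.12 and 7.20 in the B parent, 8.82, 8.72 and 8.30 in the hybrid and 9.86, 8.62 and 8.88 in the R parent (4.40-fold). In mature root neither gene's parents were called apart. ARF15 read 8.23, 8.57 and 8.32 in the B parent's young root and 10.50, 9.90 and 9.64 in the R parent's, 3.11-fold higher, with the hybrid between them at 9.28, 9.47 and 9.41. In young leaf ARF15 was 2.06-fold lower in the R parent, and in mature root 2.18-fold lower.

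**Figure D4:**
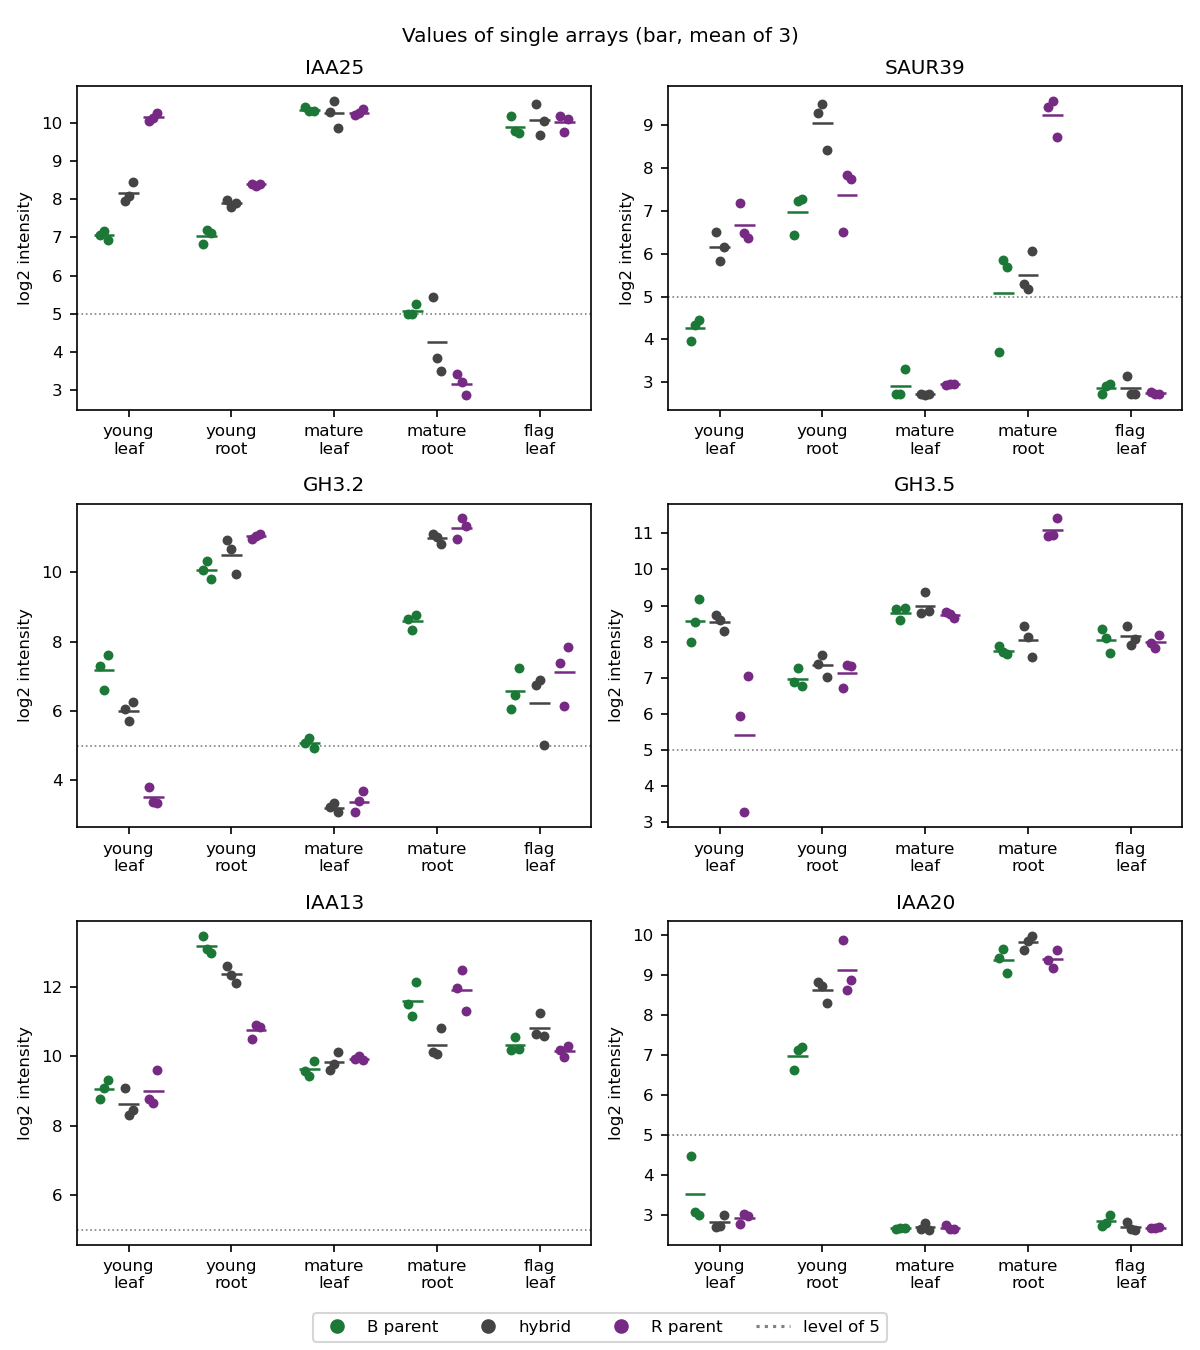
Single arrays (points) and means (bars) of 6 genes in log2 intensity, by tissue and by genotype (B parent green, hybrid grey, R parent purple), each panel on its own axis. The dotted line marks the level of 5. SAUR39 and GH3.5 are high in the R parent's mature root, and IAA20 is above 5 in roots only. The means of IAA25 are ordered B parent, hybrid, R parent from low to high in both seedling tissues.

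Differences between the parents in the mature leaf and flag leaf were smaller. In mature leaf ARF12, which promotes root elongation in rice, had a bound of 0.53, with 5.79, 5.39 and 5.41 in the R parent and 3.89, 4.08 and 4.53 in the B parent. It was not called without any 1 of B parent replicates 1 and 2 and R parent replicates 1 and 3 (1.22, 1.32, 1.23 and 1.42 as fitted, adjusted p of 0.104, 0.0733, 0.106 and 0.0522). It was also lost after quantile normalization, without the level filter, with the spike-ins and on the compared stages alone (1.14 to 1.43, adjusted p of 0.0612 to 0.0912). ARF1 read 5.55, 6.78 and 5.95 in the R parent and 4.71, 5.02 and 5.89 in the B parent (0.89 ± 0.30), with overlap. That call was lost without B parent replicate 1 or 2 or R parent replicate 2 or 3 (0.64, 0.79, 0.54 and 0.95), and under the same 4 settings (0.69 to 0.98, adjusted p of 0.0751 to 0.195). ARF23 read 12.47, 12.46 and 12.14 against 11.66, 11.64 and 11.85 (0.64 ± 0.16), its other probe set gave -0.22, and the call was lost with the spike-ins as a covariate (0.55). The mature leaf count of 5 was 2 without B parent replicate 1, and 3 without B parent replicate 2, R parent replicate 1 or R parent replicate 3. In flag leaf ARF4 was 11.07, 11.32 and 11.15 in the R parent and 11.81, 11.62 and 11.80 in the B parent (-0.56 ± 0.13). Its other probe set gave -0.36, which was not called (adjusted p = 0.246). IAA3 was 0.44 ± 0.14 higher in the R parent, 11.38, 11.21 and 11.53 against 11.03, 10.82 and 10.97, but its other probe set gave -0.04. That call was lost without B parent replicate 2 or 3 or R parent replicate 1 or 3 (0.37, 0.45, 0.43 and 0.36). IAA6 was called lower in the R parent from means of 4.15 and 4.84, which have no order. The flag leaf count of 3 was 1 without B parent replicate 3, and the young root count of 15 was 9 without B parent replicate 1 or R parent replicate 1.

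The hybrid was then set against the mean of its parents. In young leaf 8 members were higher and 8 lower than this mid-parent, where 46.9% of all probe sets were called, mostly upward (34.4% higher, 12.5% lower). After quantile normalization the split was 5 higher and 14 lower, and the median of all probe sets went from 0.17 to 0.03. In young root 3 were higher and 4 lower, where 20.3% of all were called (11.4% higher, 8.91% lower). In mature root 8 were higher and 5 lower, where 23% were called (13.6% higher, 9.42% lower). In flag leaf 3 were higher and 0 lower, where 10.1% were called (7.69% higher, 2.44% lower), and after quantile normalization 1 was higher and 1 lower. In mature leaf limma called 0 members (4.88% of all), with 4 at an unadjusted p under 0.05 and 5 called with array weights. Against the B parent alone the hybrid differed in 16 members in young leaf (36.4% of all probe sets), 13 in young root (25.7%), 2 in mature leaf (10.7%), 15 in mature root (34.3%) and 1 in flag leaf (11.9%). Against the R parent alone it differed in 21 (51.4%), 9 (20.7%), 0 (6.84%, with 2 at an unadjusted p under 0.05), 19 (39.8%) and 3 (10.7%) in the same order of tissues. All of these comparisons share the hybrid arrays. The young root count of 7 was 4 without hybrid replicate 2, the flag leaf count of 3 was 1 without hybrid replicate 1, and without R parent replicate 1 the mature leaf count was 1.

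A gene lay outside both parents where the hybrid was called against each in the same direction. This held for 6 members in young leaf, 3 higher and 3 lower, beside 19.9% of all probe sets (15.3% higher, 4.53% lower). It held for 4 in young root, 2 higher and 2 lower, beside 7.14% (4.71% higher, 2.43% lower). It held for 5 in mature root, 4 higher and 1 lower, beside 5.03% (3.39% higher, 1.63% lower), and for 1 in flag leaf, higher, beside 2.73% (2.17% higher, 0.559% lower). In mature leaf it held for 0 (0.986%), with 1 at unadjusted p under 0.05. In all 13 members did so in at least 1 tissue, beside 32% of all probe sets, and 3 in at least 2 tissues, beside 3.55%, namely ARF7, ARF10 and ARF24. Without the cases that have no order, GH3.6 in young leaf and ARF10 in mature root, these were 12 members and 2.

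In young leaf of the hybrid, IAA21 was low. It read 10.04, 9.42 and 9.96, against 11.37, 11.91 and 11.32 for the B parent and 11.36, 11.45 and 12.00 for the R parent. All hybrid arrays lay under all parent arrays, 3.32-fold under the B parent and 3.49-fold under the R parent (adjusted p = 9.4e-05 and 2.4e-05). IAA3 read 13.02, 12.77 and 13.00 in the hybrid, 13.37, 13.52 and 13.37 for the B parent and 13.53, 13.59 and 13.64 for the R parent, again without overlap. The other probe set of IAA3 gave 0.19 (adjusted p = 0.530). ARF3 read 6.67, 7.20 and 6.69 in the hybrid, below 8.04, 7.69 and 7.31 for the B parent and 7.52, 7.76 and 8.11 for the R parent.

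On the high side, ARF24 read 9.50, 9.40 and 9.37 in the hybrid, 8.86, 8.69 and 9.08 for the B parent and 8.54, 8.15 and 8.40 for the R parent. ARF18 read 8.96, 9.11 and 8.90, overlapping 1 R parent array of 8.93. GH3.6 was called outside the parents at means under 5 in all 3 genotypes and so has no order. With the spike-ins as a covariate 3 members were called, and IAA3 (-0.45), ARF3 (-0.50), ARF18 (0.46) and ARF24 (0.42) were not among them. Their smaller differences from a parent without the covariate were -0.49, -0.82, 0.48 and 0.55. After quantile normalization ARF18 (0.13) and ARF24 (0.43) were not called. The call of ARF24 was lost without any 1 of hybrid replicates 1 to 3 or B parent replicates 1 or 2 (0.46 to 0.57). That of ARF18 was lost without hybrid replicate 1 or 2, B parent replicate 3 or R parent replicate 1 (0.19 to 0.49). That of ARF3 was lost without hybrid replicate 1 or 3 or B parent replicate 1 (-0.73, -0.74 and -0.64), and that of GH3.6 without hybrid replicate 1 or 3 or B parent replicate 3. The count of 6 was 2 without hybrid replicate 1 and 3 without hybrid replicate 3. After quantile normalization 1 member was higher and 6 lower.

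SAUR39 stood out in young root of the hybrid. It read 9.27, 9.48 and 8.41, against 6.42, 7.22 and 7.27 for the B parent and 6.50, 7.83 and 7.74 for the R parent. Every hybrid array exceeded every parent array there, 4.23-fold over the B parent and 3.24-fold over the R parent (adjusted p = 6.4e-05 and 0.001). The hybrid's young roots also had the highest leaf marker level. SAUR39 averaged 6.16 ± 0.33 in the hybrid's young leaf and 9.05 ± 0.57 in its young root, and the part of the leaf markers was not tested. ARF24 was also higher in the hybrid's young root, at 8.36, 8.64 and 8.94 against 7.34, 7.96 and 7.84 for the B parent and 7.93, 8.18 and 8.12 for the R parent. In the hybrid's young leaf it averaged 9.42 ± 0.07.

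On the low side in young root, ARF10 read 5.11, 4.93 and 4.71 in the hybrid, under 5.58, 5.66 and 5.28 for the B parent and 6.24, 5.49 and 5.41 for the R parent. On the compared stages alone neither this call (-0.59, adjusted p = 0.0882) nor those of ARF24 and ARF7 held. ARF7 read 8.25, 7.91 and 8.92, the last within the parents' 8.79 to 9.14. The ARF24 call in young root was lost with the spike-ins (0.51) or the 3′ index (0.56) as a covariate, and without hybrid replicate 2 or 3 or any 1 R parent array (0.43 to 0.63). The ARF7 call there was lost without hybrid replicate 1 or 2, B parent replicate 1 or 2, or R parent replicate 1 or 2 (-0.57 to -0.34). The count of 4 was 2 without hybrid replicate 2, R parent replicate 1 or R parent replicate 2.

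In mature root, IAA6 was raised in the hybrid, with 11.72, 11.77 and 11.67 against 10.04, 10.55 and 10.12 for the B parent and 10.87, 11.04 and 10.82 for the R parent. The 3 genotypes did not overlap, and the hybrid was 2.80-fold above the B parent and 1.76-fold above the R parent (adjusted p = 8.0e-07 and 0.0022). IAA13 was lowered, with 10.13, 10.05 and 10.80 against 11.51, 11.17 and 12.12 for the B parent and 11.96, 12.49 and 11.31 for the R parent. It lay 2.42-fold under the B parent and 3.02-fold under the R parent, although with the 3′ index as a covariate this was not called (-0.64, adjusted p = 0.333). GH3.4, a further GH3 family member, read 6.33, 6.19 and 6.74 in the hybrid, while the means of both parents were under 5 (3.84 ± 0.30 and 4.70 ± 0.88). The hybrid was thus at least 2.68-fold higher than each. ARF7, low in the hybrid's young root, was high in its mature root at 8.45, 8.09 and 8.71 against 7.59, 7.74 and 7.88 for the B parent and 7.28, 7.47 and 7.34 for the R parent. It was not called without hybrid replicate 3 (0.53, adjusted p = 0.0521) or with the 3′ index as a covariate (0.69, adjusted p = 0.109). ARF10 was called higher from means under 5 in all genotypes, which have no order. With the 3′ index as a covariate 2 of the 5 members were called.

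In flag leaf only ARF23 lay outside the parents, with 12.14, 11.56 and 11.74 in the hybrid, 11.32, 10.90 and 11.20 for the B parent and 11.02, 11.22 and 10.89 for the R parent (0.68 and 0.77 higher, adjusted p = 0.0033 and 0.00071). The smaller difference was 0.51 without hybrid replicate 1 (adjusted p = 0.0633), which left a count of 0, and without hybrid replicate 2 the count was 2.

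**Figure D5:**
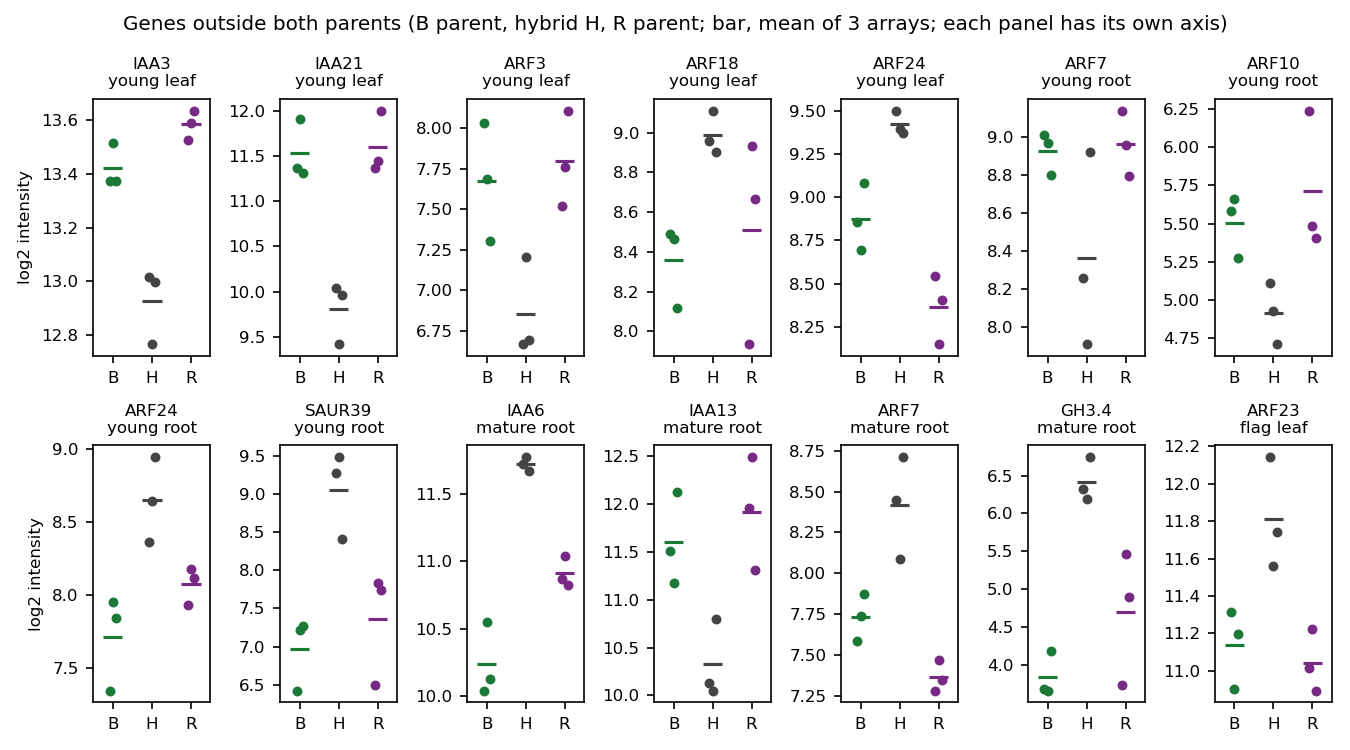
Single arrays (points) and means (bars) in log2 intensity of the 14 cases in which the hybrid (H) was called outside both the B parent (B) and the R parent (R) with a hybrid or parent mean of at least 5. Each panel has its own axis. The hybrid's arrays lie clear of all parent arrays in each panel but those of ARF18 in young leaf and ARF7 in young root.

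The effects of genotype depended on tissue. The difference in hybrid minus mid-parent between young leaf and young root was called for 13 members, 5 higher in leaf and 8 lower, where 41% of all probe sets were called (28.2% higher, 12.8% lower). Between mature leaf and mature root it was called for 12, 5 higher and 7 lower, where 18.7% were called (6.85% higher, 11.8% lower). The R parent minus B parent difference was called apart between young leaf and young root for 20 members, 5 higher and 15 lower, where 41% of all were called (13.6% higher, 27.5% lower). Between mature leaf and mature root it was called apart for 20, 16 higher and 4 lower, where 49% were called (27.5% higher, 21.5% lower). After quantile normalization the seedling splits were 4 and 13 for the hybrid and 6 and 11 for the parents. In mature tissues the parents' count was 10 with the 3′ index as a covariate, 8 higher and 2 lower, and the hybrid's was 3 with it and 4 with the spike-ins. The hybrid's count of 12 in mature tissues was 7 without mature leaf hybrid replicate 2 or mature root hybrid replicate 1.

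Genes that make, move and break down auxin outside these families were few on the array by name: 8 had a probe set and 6 were tested. Between young leaf and young root 1 was higher in leaf and 4 lower, and likewise between mature leaf and mature root. Of all probe sets 81.3% and 86.4% were called there. The seedling call of PIN5 has no order, and the mature calls of PIN10a and PIN2 have no bound. DAO, the dioxygenase that oxidizes auxin, was lower in young leaf than in young root (-4.43 ± 0.16) and averaged 11.19 to 11.79 in young roots. PIN5A, a member of the PIN family of auxin transporters, was the one higher in leaf, by 2.47 ± 0.18 in seedlings and by at least 6.52 in mature plants. FIB, an aminotransferase of auxin synthesis, was lower in young leaf than in young root (-1.04 ± 0.23). PIN2, an efflux carrier of root tips, averaged 5.23 ± 0.51 in the hybrid's young root, 7.73 ± 0.28 in the B parent's and 5.90 ± 0.18 in the R parent's, and both others were called under the B parent. In mature root, where 58.9% of all probe sets were called and the R parent had the low 3′ index, all 6 differed between the parents: DAO was higher in the R parent, and FIB, PIN2, PIN5A and the genes listed as PIN10a and PIN5 were lower. None of the 6 lay outside both parents in young leaf, young root, mature leaf or mature root, and in flag leaf PIN5A did (1.05 and 1.15 higher than the B and R parents).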

How the data were processed

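The deposited table gives linear intensity values that the authors obtained with GCRMA, per the submitters' processing notes, with no version given. They were converted to log2 (0 values under 1). No further normalization was applied. Probe sets of the Affymetrix Rice Genome Array were paired with genes through the array annotation, and symbols came from the RefSeq gene table. Probe sets marked _x, _s or _a, which can hybridize with related transcripts, serve 5 members, 4 of them tested (IAA17, IAA23, ARF12 and ARF23).

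A linear model with 1 mean per group was fitted to the 45 arrays (30 residual degrees of freedom; limma 3.58.1, R 4.3.3) for 24130 probe sets with a mean of at least 5 in 1 group or more, without 123 controls. P-values were adjusted by Benjamini-Hochberg per comparison, with a threshold of 0.05. In simulated data for young leaf hybrid minus mid-parent, 61 of 100 probe sets changed by 1 and 100 of 100 changed by 2 (log2) were recovered. There were 13 false calls among the unchanged probe sets. The simulation put normal noise around each probe set's overall mean. It changed far fewer probe sets than were called in the data, so it does not give the recovery there. The members and lists were chosen with earlier results of these data known. Values by array are given for members outside both parents (6 per tissue at most), the 4 called members with the largest parental difference per tissue, and up to 4 per direction in comparisons of tissue or age. Replicate numbers were not treated as pairs: residuals of arrays that share a number correlated at -0.114 to 0.0495 on average by tissue. No 2 arrays were identical. As alternatives the fits were repeated after quantile normalization, without the level filter, with array weights, with the replicate number as a block, with the spike-ins or the 3′ index as a covariate, on the compared stages alone, against a linear mid-parent, with the second probe set and without each array. Plots were made in Python 3.11.15 (matplotlib 3.10.9). Sequences are not used here.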

Additional observations from a re-analysis of the deposited data

Results flagged for a closer look

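Among the members given by array above, the following had a difference between genotypes that itself differed between leaf and root of the same age, tested as an interaction in the limma fit (adjusted p under 0.05, leaf minus root, log2). The first group concerns the hybrid minus the mid-parent in seedlings. IAA21 differed by -1.98 ± 0.41, from -1.77 in young leaf and 0.21 in young root, and IAA3 by -0.66, from -0.58 and 0.09. SAUR39 gave -1.19, ARF10 0.63 and GH3.6 1.095 as fitted, and these 3 have no bound because of leaf means under 5.

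In mature tissues the hybrid minus the mid-parent differed by -1.56 for IAA6 (-0.41 in leaf, 1.15 in root) and by 1.49 for IAA13 (0.05 in leaf, -1.43 in root). ARF7 gave -0.69. GH3.4 gave -2.09 with leaf means under 5, and ARF10 gave -0.75 with all means under 5, which have no order.

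For the R parent minus the B parent in seedlings, GH3.2 differed by -4.63 as fitted (-3.66 in leaf, 0.97 in root), GH3.5 by -3.31 and ARF15 by -2.68 (-1.05 in leaf, 1.64 in root). The R parent's leaf mean of GH3.2 was under 5, and the bound on its leaf difference was -2.18. IAA13 gave 2.38 and IAA25 1.74. IAA31 gave -2.66 as fitted, with a bound of -1.75 because the R parent's leaf mean was under 5, and IAA20 gave -2.73 with leaf means under 5.

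For the same parents in mature tissues, GH3.2 differed by -4.38 as fitted (-1.69 in leaf, 2.69 in root), GH3.5 by -3.40 and SAUR39 by -4.11, the last with leaf means under 5. The R parent's leaf mean of GH3.2 was again under 5, and the bound on its leaf difference was only -0.07. ARF1 gave 2.00 (0.89 in leaf, -1.11 in root). ARF12 gave 2.24 as fitted, from a bound of 0.53 in leaf and -0.88 in root. IAA25 gave 1.825 as fitted, with the R parent's root mean under 5. With that mean set to 5, the differences of IAA25 were -0.08 in leaf and -0.08 in root, so no difference between tissues is established. In groups of 3 arrays no test for single deviating arrays was made.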

How the results depend on the processing

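Of 446 calls of members over all comparisons, 3 turned direction under quantile normalization (IAA19, IAA3 and IAA5, 1 of them called, IAA19 at 0.28), 3 with the 3′ index as a covariate (ARF3, IAA20 and GH3.5, 0 called), and 0 without a level filter, with array weights, with the replicate block or with the spike-ins. Of the 446 calls, 85 kept their direction but were no longer called with the spike-ins, 84 with the 3′ index, 31 without a level filter, 30 after quantile normalization, 14 with array weights and 11 with the replicate block. The replicate block left all 24 counts within 1.5 times. With the second probe set, IAA3 gave 0.19 in young leaf outside both parents and -0.037 between the parents in flag leaf, and ARF23 gave -0.22 between the parents in mature leaf, each against its direction with the first probe set. The cause of these changes was not tested.

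Counts that moved by over 1.5 times were these. For the hybrid minus the mid-parent, young leaf gave 6 with spike-ins, young root 17 with array weights and 12 with the compared stages alone, mature leaf 5 with array weights and 1 with quantile normalization, the compared stages alone or the linear mid-parent, and flag leaf 5 with array weights and 1 with the compared stages alone. Outside both parents, young leaf gave 3 with spike-ins, young root 7 with array weights, mature root 2 with the 3′ index, and flag leaf 2 without a level filter, 2 with array weights and 0 with the compared stages alone. Between the parents, young root gave 24 with array weights, mature leaf 3 with quantile normalization, 3 without a level filter, 8 with array weights and 1 with spike-ins, mature root 10 with the 3′ index, and flag leaf 1 with the second probe set. Mature leaf minus young leaf gave 22 with the 3′ index. The difference in hybrid minus mid-parent between mature tissues gave 4 with spike-ins and 3 with the 3′ index, and that between the parents 10 with the 3′ index.

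With each array left out in turn, the hybrid minus the mid-parent gave 15 to 19 in young leaf, 4 to 8 in young root, 0 to 1 in mature leaf, 10 to 15 in mature root and 1 to 4 in flag leaf. Outside both parents the ranges were 2 to 7, 2 to 4, 0 to 0, 5 to 5 and 0 to 2 in the same order, and between the parents 19 to 23, 9 to 15, 2 to 5, 19 to 23 and 1 to 3. Young leaf minus young root gave 36 to 40, mature leaf minus mature root 41 to 42, mature leaf minus young leaf 33 to 37, mature root minus young root 35 to 38 and flag leaf minus mature leaf 20 to 25. The interactions gave 11 to 15 and 18 to 21 in seedlings and 7 to 11 and 18 to 21 in mature tissues, for hybrid and parents. Signal near background limits what can be said of the 8 untested members and of calls with means under 5.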
